A study of Mus musculus with 12 samples.

Results

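Developmental transcription factor genes of the non-Hox homeobox and Pax families were followed through 12 RNA-seq libraries of mouse oocytes. The members are 54 named genes, found by their symbols in both deposited tables, which hold 55385 gene models for the PRC2 series and 55401 for the PRC1 series. No expression filter was used to choose them. They comprise 7 Pax genes, 3 sine oculis-type genes (Six2, Six3 and Six6), 11 LIM-homeobox genes, 5 Nkx genes, 6 Dlx genes, 6 Irx genes, 5 paired-like genes (Pitx, Alx and Prrx), 5 Emx, Msx and Barx genes, and 6 Gbx, En, Evx and Cdx genes.

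Each of 6 groups had 2 libraries. The PRC2 series compared oocytes labelled Eed F/+ with Ddx4-Cre (PRC2 control) and oocytes labelled Eed F/- with Ddx4-Cre (PRC2 conditional knockout, cKO), as non-growing oocytes at postnatal day 6 and as growing oocytes at postnatal day 7. The PRC1 series held growing oocytes at postnatal day 7 only: a control labelled Ring1-/- and Rnf2 F/+ with Ddx4-Cre, and a cKO labelled Ring1-/- and Ring1 F/- with Ddx4-Cre. Both PRC1 groups therefore lack Ring1 by their labels, and all groups carry Ddx4-Cre, which recombines in germ cells. The stages differ by day as well as by growth. No label ties the paired libraries of a group to different animals, so p-values measure only the spread between these libraries, which may be technical.

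Homeobox and Pax genes encode DNA-binding proteins that give cells of the embryo their regional and cell-type identity, and most are silent outside the tissues they pattern. Their promoters are usually rich in CpG dinucleotides and are among the best known targets of Polycomb proteins. Polycomb repressive complex 2 (PRC2), of which Eed is a core subunit, methylates lysine 27 of histone H3. Polycomb repressive complex 1 (PRC1), whose catalytic subunit is Ring1 or Rnf2, ubiquitinates histone H2A.

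Values are TPM (transcript abundances scaled for length and library), which sum to 1000000 in each library and keep no sequencing depth. Log2 changes are differences of log2(TPM + 1), which understates changes of low genes. A call is a limma adjusted p under 0.05 over all genes tested in a table, namely those at 1 TPM or more in at least 2 libraries. The 2 tables were deposited separately and no test was made across them.

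The targeted gene of the PRC2 series was low where the labels say it should be: in non-growing oocytes Eed stood at 88.9 and 90.5 TPM in control against 12.1 and 10.3 TPM in PRC2 cKO, and in growing oocytes at 62.3 and 60.5 against 9.64 and 10.1 TPM. Ring1 was at 0.02 TPM or lower in all 4 PRC1 libraries. Rnf2 was at 59.2 and 53.8 TPM in PRC1 control and at 87.8 and 61.4 TPM in oocytes labelled PRC1 cKO (log2 change 0.37, SE 0.21, limma adjusted p = 0.196), so its gene-level TPM did not show a loss. The cKO label names Ring1 for both mutated alleles and does not name Rnf2, and whether a shortened Rnf2 transcript is counted cannot be read from these values. Loss of PRC1 activity in this group is therefore not shown by label or level, and the group is called by its label throughout. The 12 oocyte markers were all above 1 TPM in every library. Their summed level was 18970 and 20241 TPM in PRC1 control and 14541 and 14082 TPM in oocytes labelled PRC1 cKO. The markers went both ways by limma, 4 of 12 called higher and 4 lower: Gdf9 was at 4864 and 5225 against 1572 and 2205 TPM, while Sohlh1 was at 90.0 and 157 against 986 and 598 TPM.

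Most members were silent or nearly so in oocytes. Across all 12 libraries 37 of 54 members never reached 1 TPM, and 30 never reached 0.5 TPM. Six3 and Nkx3-2 were listed at 0 throughout. In the 10 libraries other than those of labelled PRC1 cKO, 4 to 6 members were at 1 TPM or more, which is 7.41% to 11.1% of the members, while 21.2% to 22.7% of all gene models reached that level. Oocytes labelled PRC1 cKO had 16 and 17 such members (29.6% and 31.5%), against 28.1% and 27.0% of all gene models. The members listed at 0 numbered 26 and 24 in PRC1 control and 4 and 12 in oocytes labelled PRC1 cKO. The number of detected members therefore roughly matched the share for all genes in those 2 libraries and was below it in the other 10.

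**Figure D1:**
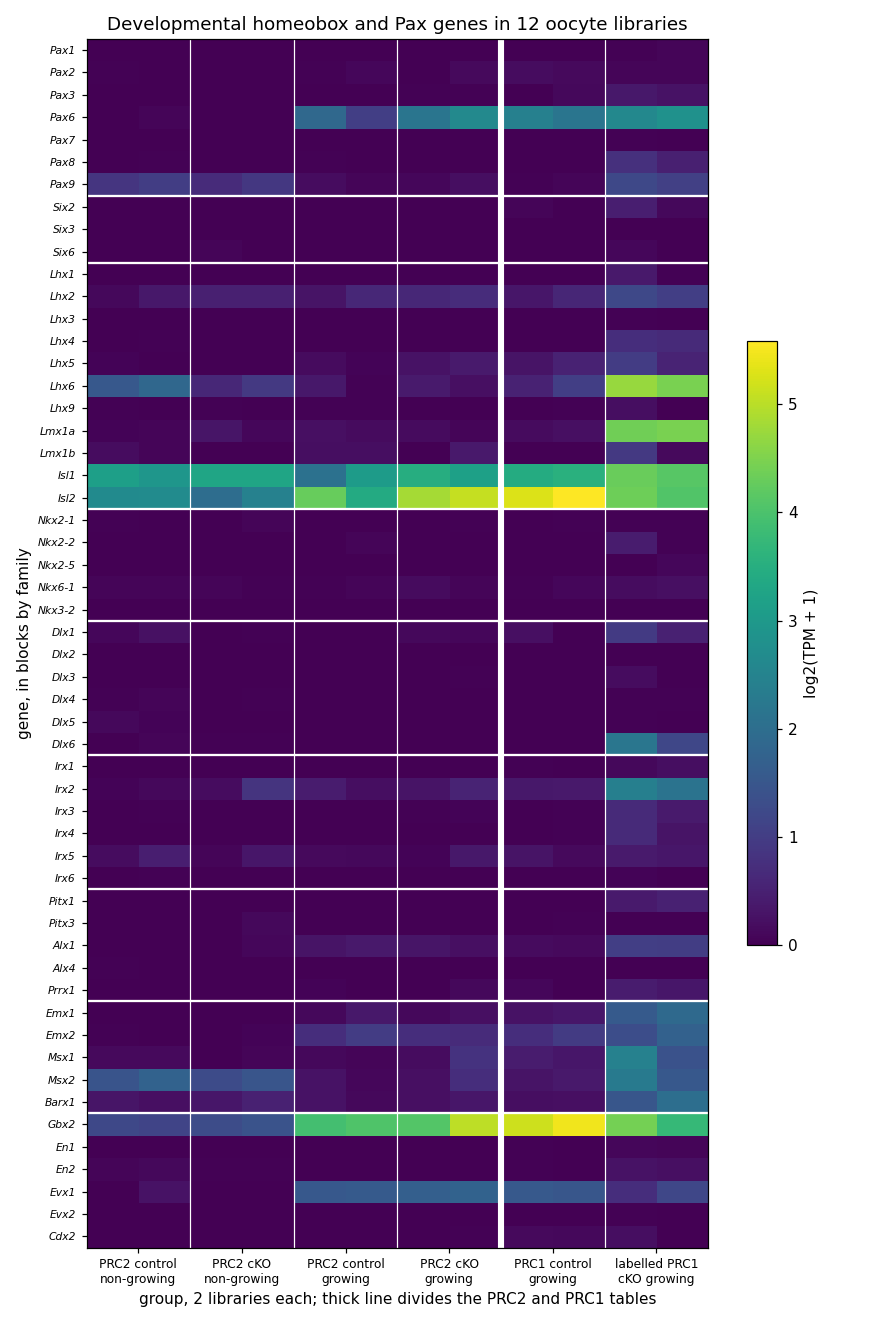
Level of each of the 54 genes (rows, in family blocks) in each of the 12 libraries (columns, 2 per group), as log2(TPM + 1). Isl1 was above 3 TPM in every library, Gbx2 and Isl2 were high in growing oocytes, and Lhx6 and Lmx1a were above 19 TPM only in oocytes labelled PRC1 cKO.

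A few genes carried nearly all of the family's RNA. The summed level of the members was 20.3 and 21.3 TPM in non-growing PRC2 control and 17.1 and 20.8 TPM in non-growing PRC2 cKO. In growing oocytes the sum was 43.4 and 38.9 TPM in PRC2 control and 62.7 and 85.8 TPM in PRC2 cKO. It was 93.2 and 111.1 TPM in PRC1 control and 143.8 and 118.2 TPM in oocytes labelled PRC1 cKO. The LIM-homeobox genes Isl1 and Isl2 were among the 3 highest members in each of the first 10 libraries, joined by Gbx2 in all growing ones, and the top 3 made up 69.1% to 90.6% of the sum. In oocytes labelled PRC1 cKO the top 3 made up 45.6% and 49.6%, so the sum was spread over more genes.

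The PRC1 series compared growing oocytes labelled PRC1 cKO with their control. In this comparison 12 members were called higher and 2 lower among the 17 members tested, and 37 members were not tested because of their low level. Over all 14941 genes tested, 41.3% were called higher and 6.45% lower. The tested median was shifted by 0.55 (log2), so the change relative to it is also given for each call below. Of the 17 tested members, Lmx1a, Irx2, Dlx6, Msx1, Msx2, Barx1, Emx1, Emx2, Pax9, Alx1 and Lhx2 passed the filter only through oocytes labelled PRC1 cKO and so had to differ. Their count is therefore a description, with no weight as support.

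The LIM-homeobox genes Lmx1a and Lhx6 stood highest. Lmx1a, a factor of midbrain dopamine neurons and the roof plate, was at 0.12 and 0.17 TPM in PRC1 control and at 19.9 and 20.9 TPM in oocytes labelled PRC1 cKO. Its log2 change was 4.22 (SE 0.21, limma adjusted p = 0.00208), or 18.6-fold as a ratio of TPM + 1, and 3.67 above the median gene. Lmx1a was at 0.25 TPM or lower in all 8 libraries of the PRC2 series. Lhx6, a factor of cortical interneurons that arise in the ventral forebrain, was at 0.45 and 1.05 TPM in PRC1 control and at 25.4 and 21.2 TPM in oocytes labelled PRC1 cKO. Its log2 change was 3.81 (SE 0.27, limma adjusted p = 0.00212), 14.0-fold as a ratio of TPM + 1 and 3.26 above the median gene. The groups of both genes were far apart, and both calls held in each of the 14 alternatives run. Lmx1a passed the filter only through oocytes labelled PRC1 cKO, so for Lmx1a this is a description with no weight as support. After quantile normalization the log2 changes of Lmx1a and Lhx6 were 3.47 and 3.13.

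The promoters of Lmx1a, Lhx6, Irx2 and Gbx2 are printed because these genes moved in opposite directions in this comparison, the first 3 up and Gbx2 down. Each is the RefSeq window of GRCm38.p6 from 250 bases before to 50 bases after the start nearest to the 5′ end of the gene model, 5′ to 3′ on the gene's strand, with CpG dinucleotides in capitals. The windows lie at chr1:167689308-167689607 on the plus strand for Lmx1a, chr2:36105359-36105658 on the minus strand for Lhx6, chr13:72628570-72628869 on the plus strand for Irx2 and chr1:89931127-89931426 on the minus strand for Gbx2.
Lmx1a: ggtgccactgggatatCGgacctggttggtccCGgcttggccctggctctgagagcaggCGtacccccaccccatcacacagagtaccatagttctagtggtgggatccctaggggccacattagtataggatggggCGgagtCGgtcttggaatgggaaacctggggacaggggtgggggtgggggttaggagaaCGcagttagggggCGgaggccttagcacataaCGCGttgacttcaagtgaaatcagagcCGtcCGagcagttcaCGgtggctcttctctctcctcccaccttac
Lhx6: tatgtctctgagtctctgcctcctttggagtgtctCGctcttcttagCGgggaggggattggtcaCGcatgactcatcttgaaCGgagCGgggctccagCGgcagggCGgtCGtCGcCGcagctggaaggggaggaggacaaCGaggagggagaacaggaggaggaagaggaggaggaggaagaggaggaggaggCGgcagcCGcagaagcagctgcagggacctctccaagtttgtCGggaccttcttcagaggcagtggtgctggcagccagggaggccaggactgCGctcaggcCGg
Irx2: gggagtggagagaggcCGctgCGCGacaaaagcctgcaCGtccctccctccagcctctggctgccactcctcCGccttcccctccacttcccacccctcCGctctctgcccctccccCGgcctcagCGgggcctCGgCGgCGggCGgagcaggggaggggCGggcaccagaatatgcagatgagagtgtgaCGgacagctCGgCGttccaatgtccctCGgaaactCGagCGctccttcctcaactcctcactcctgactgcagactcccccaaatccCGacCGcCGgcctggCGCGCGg
Gbx2: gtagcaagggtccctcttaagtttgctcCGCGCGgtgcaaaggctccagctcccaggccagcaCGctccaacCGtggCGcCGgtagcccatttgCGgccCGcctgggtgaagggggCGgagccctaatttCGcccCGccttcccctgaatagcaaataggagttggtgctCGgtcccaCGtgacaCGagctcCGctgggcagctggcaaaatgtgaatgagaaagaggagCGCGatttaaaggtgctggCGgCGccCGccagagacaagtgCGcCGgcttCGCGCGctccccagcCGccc
The printed windows hold 12 CpG (Lmx1a), 16 (Lhx6), 25 (Irx2) and 27 (Gbx2), and their GC contents are 59.3%, 63.3%, 69.0% and 64.7%. RefSeq windows were matched for 41 of the 54 members, 48 windows in all. The median was 20 CpG per window of 300 bases (quartiles 13.75 and 28.25), against 7 (quartiles 3 and 20) over all 32851 windows. The median was 25 CpG in 13 windows of 10 members called higher in oocytes labelled PRC1 cKO, and 19 in 29 windows of 26 members below 1 TPM in both of them. Medians above the 7 of all windows were therefore shared by members that rose and members that stayed low, with some members counted by more than 1 window. The printed windows of Lmx1a and Lhx6 lay below the members' median of 20, and that of Gbx2, which fell, lay above it. The letters TATAAA, on either strand, were in 3 of the 48 windows (6.25%) and in 13.6% of all windows, and TAATTG, a homeodomain-type core, was in 3 (6.25%) and in 8.0% of all windows.

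Isl1 and Isl2, LIM-homeobox genes of motor neurons, heart and pancreas, moved apart. Isl1 (chromosome 13) was at 9.88 and 10.6 TPM in PRC1 control and at 18.7 and 16.7 TPM in oocytes labelled PRC1 cKO, a log2 change of 0.73 (SE 0.19, limma adjusted p = 0.0294) that is only 0.18 above the median gene and 0.21 with limma adjusted p = 0.371 after trimmed-mean scaling (0.00829 to 0.43 over the alternatives). Isl2 (chromosome 9) was at 38.2 and 47.0 TPM in PRC1 control and at 19.6 and 15.8 TPM in oocytes labelled PRC1 cKO. The log2 change of Isl2 was -1.22 (SE 0.20, limma adjusted p = 0.0083), 1.77 below the median gene. Both groups of each gene were apart.

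Lhx2, a regulator of eye, limb and hair follicle development, was at 0.27 and 0.51 TPM in PRC1 control and at 1.3 and 1.04 TPM in oocytes labelled PRC1 cKO, a call (limma adjusted p = 0.0318) that was lost after trimmed-mean scaling (0.42, adjusted p = 0.0874, in a range of 0.023 to 0.21 over the alternatives), whose sign turned after quantile normalization (-0.33) and which is only 0.10 above the median gene. Among the LIM genes below the testing level, Lhx4 was at 0 and 0.01 TPM in PRC1 control and at 0.67 and 0.59 TPM in oocytes labelled PRC1 cKO, Lhx5 at 0.23 and 0.44 against 0.98 and 0.48 TPM, and Lmx1b at 0 and 0 against 0.9 and 0.1 TPM. Lhx1 (0.31 and 0.02 TPM), Lhx3 (0.03 and 0 TPM) and Lhx9 (0.15 and 0 TPM) stayed below 0.4 TPM in both labelled PRC1 cKO libraries.

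**Figure D2:**
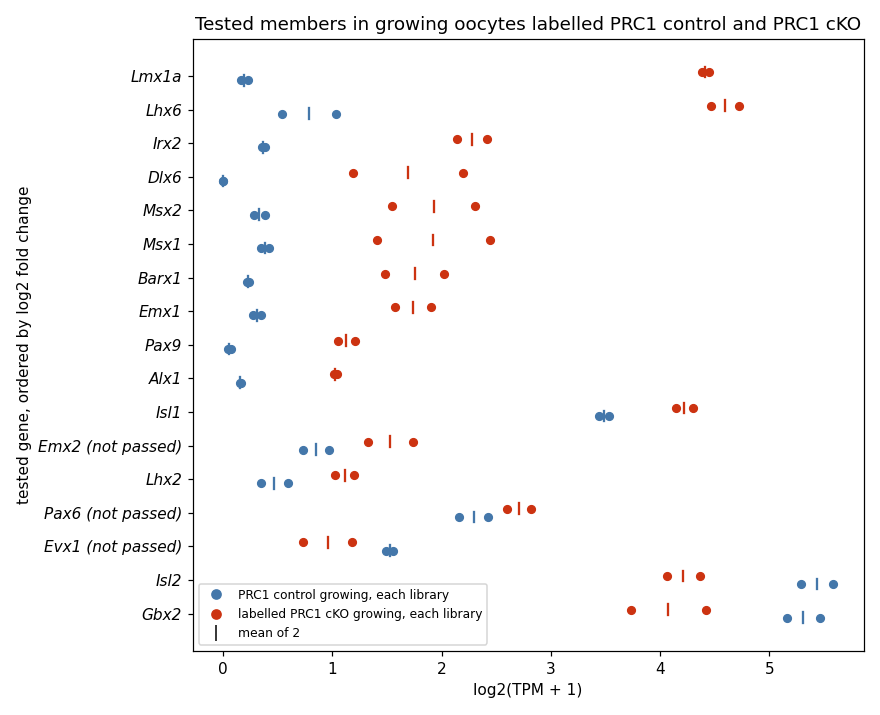
Level of the 17 tested members as log2(TPM + 1) in the 2 PRC1 control libraries (blue) and the 2 libraries labelled PRC1 cKO (red), with the mean of 2 as a bar; genes are ordered by log2 change. Lmx1a and Lhx6 show the widest separation, Gbx2 and Isl2 are lower in the red libraries, and Emx2, Pax6 and Evx1 did not pass the test; after quantile normalization Alx1, Lhx2, Emx2 and Pax6 change sign.

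Msx1, Msx2, Barx1 and Emx1 were called higher, from low levels, in calls that all were lost after quantile normalization. Msx1 was at 0.34 and 0.27 TPM in PRC1 control and at 4.44 and 1.65 TPM in oocytes labelled PRC1 cKO (log2 change 1.54, SE 0.36, limma adjusted p = 0.0223). Msx2 was at 0.22 and 0.3 TPM against 3.96 and 1.92 TPM (log2 change 1.60, SE 0.29, limma adjusted p = 0.0108). The Msx genes, known for roles in limb, tooth and skull development, were higher in cKO library 1 than in cKO library 2. Barx1, a stomach and tooth regulator, was at 0.16 and 0.18 TPM against 1.8 and 3.06 TPM (log2 change 1.53, SE 0.23, limma adjusted p = 0.00642). Emx1, a marker of dorsal forebrain, was at 0.21 and 0.27 TPM against 1.98 and 2.73 TPM (log2 change 1.43, SE 0.19, limma adjusted p = 0.00488). Emx2, needed for kidney and gonad development, was at 0.66 and 0.96 TPM against 1.5 and 2.33 TPM and did not pass (log2 change 0.68, limma adjusted p = 0.0561). These 5 genes passed the filter only through oocytes labelled PRC1 cKO, so both cKO libraries had to be above both controls. The 4 called changes were 0.99 (Msx1), 1.05 (Msx2), 0.98 (Barx1) and 0.88 (Emx1) above the median gene. After quantile normalization they were 0.60, 0.68, 0.60 and 0.49, with limma adjusted p = 0.207, 0.087, 0.166 and 0.158, the highest over the alternatives; the lowest were 0.00645, 0.0027, 0.00248 and 0.00237.

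Irx2 was the Iroquois gene and Dlx6 the Distal-less gene that could be tested, and both were called higher. Irx2 was at 0.28 and 0.3 TPM in PRC1 control and at 4.35 and 3.4 TPM in oocytes labelled PRC1 cKO (log2 change 1.91, SE 0.19, limma adjusted p = 0.00297), 1.36 above the median gene. Dlx6, which patterns jaw and limb with other Dlx genes, was listed at 0 in both controls and stood at 3.58 and 1.28 TPM in oocytes labelled PRC1 cKO (limma adjusted p = 0.015). The fitted change of Dlx6 was 1.14 above that of the median gene, and its call was lost after quantile normalization (limma adjusted p = 0.0771, in a range of 0.00395 to 0.0771). Several untested genes of both families, all below 1 TPM, also had both cKO libraries above both controls. With no minimum level, 50.8% of 32244 gene models were likewise higher in both cKO libraries. Irx3 was at 0 and 0.03 TPM in PRC1 control against 0.59 and 0.33 TPM, Irx4 at 0 and 0.02 against 0.58 and 0.22 TPM, Irx5 at 0.22 and 0.11 against 0.33 and 0.26 TPM, and Irx1 at 0.02 and 0 against 0.09 and 0.15 TPM. Dlx1 was at 0.17 and 0 against 0.93 and 0.42 TPM, and Dlx4 was listed at 0 in both controls and stood at 0.03 TPM in both cKO libraries. Irx6, Dlx2, Dlx3 and Dlx5 were listed at 0 in both controls and in cKO library 2, and were at 0.04, 0.01, 0.14 and 0.02 TPM in cKO library 1.

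Pax genes, which encode paired-domain factors, were divided. Pax9, a regulator of teeth, palate and the pharyngeal pouches, was at 0.03 and 0.05 TPM in PRC1 control and at 1.31 and 1.07 TPM in oocytes labelled PRC1 cKO (log2 change 1.07, SE 0.14, limma adjusted p = 0.00509, 0.52 above the median gene, and 0.09 with limma adjusted p = 0.65 after quantile normalization, in a range of 0.00378 to 0.65). Pax6, the eye and forebrain regulator, was at 4.36 and 3.48 TPM against 5.07 and 6.06 TPM and did not pass (log2 change 0.42, limma adjusted p = 0.194, negative after trimmed-mean scaling). Pax8, a thyroid and kidney gene, was listed at 0 in both controls and stood at 0.71 and 0.41 TPM, and Pax3, a neural crest and muscle gene, was at 0.01 and 0.08 against 0.28 and 0.2 TPM. Pax1, Pax2 and Pax7 were at 0.14 TPM or lower in all 4 libraries.

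Paired-like, sine oculis-type and Nkx genes were little expressed in any group. Alx1, a factor of craniofacial mesenchyme, was at 0.12 and 0.11 TPM in PRC1 control and at 1.06 and 1.02 TPM in oocytes labelled PRC1 cKO, a call (log2 change 0.87, SE 0.13, limma adjusted p = 0.00704) that is 0.32 above the median gene and whose sign turned after quantile normalization (-0.11). Pitx1 was listed at 0 in both controls and stood at 0.32 and 0.42 TPM in labelled PRC1 cKO, and Prrx1 was at 0.07 and 0.01 against 0.35 and 0.26 TPM. Alx4 and Pitx3 were at 0.03 TPM or lower in all 4 libraries. The 5 Nkx genes (Nkx2-1, Nkx2-2, Nkx2-5, Nkx3-2 and Nkx6-1) summed to 0.03 and 0.09 TPM in PRC1 control and 0.51 and 0.29 TPM in oocytes labelled PRC1 cKO. Six2, Six3 and Six6 summed to 0.06 and 0 against 0.46 and 0.1 TPM.

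Gbx2 fell in this comparison, and Evx1 was lower without passing. Gbx2, which positions the midbrain and hindbrain boundary, was at 34.9 and 43.1 TPM in PRC1 control and at 20.4 and 12.3 TPM in labelled PRC1 cKO (log2 change -1.24, SE 0.28, limma adjusted p = 0.0198), 1.79 below the median gene. Evx1, an even-skipped homologue of the primitive streak and spinal cord, was at 1.94 and 1.81 TPM against 0.66 and 1.27 TPM (log2 change -0.57, SE 0.22, limma adjusted p = 0.0867), and it passed after trimmed-mean scaling (-0.88, adjusted p = 0.0307; 0.0104 to 0.279 over the alternatives). Evx1os, on the opposite strand and with exons over Evx1, was at 1.38 and 0.85 TPM against 1.08 and 1.44 TPM, and without stated strand use the reads of the pair cannot be told apart. Exons of a gene on the opposite strand overlapped 18 of the 54 members. For Gbx2 that gene, D130058E05Rik, was at 0.76 TPM or lower in every library. En1, En2, Evx2 and Cdx2 were at 0.2 TPM or lower in all 4 libraries.

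Counted by overlap, 14 members were higher and 3 lower in both labelled PRC1 cKO libraries than in both controls among the 17 with a mean of 1 TPM or more in the higher group. The corresponding shares over all 15725 gene models were 62.6% higher and 14.7% lower. With no minimum level, 35 of 52 members were higher and 4 lower, against 50.8% and 9.44% of 32244 gene models. The median log2 change over the same 52 members was 0.227 and over all 32244 models 0.149. Scaling moved the split of calls over all genes from 6176 higher and 964 lower to 3691 and 2662 (trimmed mean) and 2722 and 2636 (quantile). For the members the split went from 12 and 2 to 10 and 3, and then to 3 and 3. Fitted with no filter, 13 of 52 members were called higher and 1 lower, against 17.8% and 1.7% of 32244 models; En2, Lhx4, Pax8, Pitx1 and Prrx1 joined the calls, and Dlx6, Gbx2, Lhx2, Msx1 and Msx2 left them.

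Leaving out a control lowered the count of calls for members and for all genes. Without PRC1 control 1, 7 members were called (6 higher, 1 lower) beside 2682 genes higher and 271 lower, and without PRC1 control 2, 9 were called, all higher, beside 3821 genes higher and 402 lower. With all libraries 6176 genes were higher and 964 lower. The calls of Gbx2 (adjusted p = 0.0595 and 0.0857) and of Msx1 were lost without either, and that of Isl2 without control 2 (0.0519). Gbx2 was also lost without cKO library 2 (log2 change -0.90, adjusted p = 0.0522), in a range of 0.00161 to 0.0857 over its alternatives. Alx1, Dlx6 and Msx2 were lost without control 1, Isl1 in all 4 of these fits and Lhx2 in 3. Calls of Lmx1a, Lhx6, Irx2, Pax9, Barx1 and Emx1 held in each of the 4 fits with 1 library left out. These fits kept the filter of all libraries, which all but Lhx6 passed only through oocytes labelled PRC1 cKO. For those genes the holding of the calls is a description with no weight as support.

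By summed level most marker lists of other ovarian cells were higher in oocytes labelled PRC1 cKO, and the endothelial sums overlapped. In this comparison 62.6% of gene models with a mean of 1 TPM or more in the higher group were higher in both cKO libraries, and 14.7% lower. The 10 granulosa cell markers summed to 3.35 and 5.92 TPM in PRC1 control and 32.5 and 21.1 TPM in oocytes labelled PRC1 cKO, with 3 and 1 of 10 listed at 0 in control and none in cKO. Most of this sum was Inha (0.59 and 2.68 against 17.2 and 10.9 TPM) and Kitl (1.22 and 0.86 against 7.78 and 4.95 TPM). Granulosa-defining Foxl2 and Amh were at 0.24 TPM or lower in all 4 libraries. Foxl2 was at 0 and 0 against 0.19 and 0.14 TPM. Amh (0 and 0.05 against 0.24 and 0.04 TPM) and Fshr (0.69 and 0.75 against 0.65 and 1.26 TPM) overlapped. The other granulosa markers were higher in both cKO libraries, among them Fst (0.05 and 0.04 against 0.89 and 0.31 TPM). The 5 surface epithelium markers summed to 0.65 and 0.6 against 12.9 and 7.63 TPM, nearly all Krt7, while Upk3b went from 0.27 and 0.29 to 0.15 and 0.16 TPM. The 9 stromal markers summed to 2.99 and 1.66 against 6.27 and 9.49 TPM, with Col1a1 at 0.01 and 0.03 against 0.27 and 0.23 TPM. Nr2f2 was the largest of them in cKO (0.72 and 0.27 against 4.56 and 4.98 TPM), while Acta2 went from 2.13 and 0.84 to 0.05 and 0.1 TPM. The 6 immune markers summed to 2.61 and 2.34 against 4.38 and 3.17 TPM, the 5 endothelial to 7.19 and 5.81 against 5.93 and 9.38 TPM and the 3 erythroid to 0.17 and 0.55 against 1.39 and 1.89 TPM. The part of these cells in the members' rise was not tested, and fewer cells of a type and less RNA per cell cannot be told apart in bulk samples.

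The growth comparison asks which members change between non-growing oocytes at postnatal day 6 and growing oocytes at day 7. In PRC2 control, Gbx2, Isl2, Pax6 and Evx1 rose and Lhx6 and Msx2 fell, 6 of the 7 members tested. Of 14153 genes tested, 16.6% were called higher and 54% lower, and the median shifted by -0.673 (log2). Scaling changed the split over all genes from 2346 higher and 7640 lower to 3679 and 4709 (trimmed mean), while the same 6 members were called. Pax6 and Evx1 passed the filter only through growing libraries, and Msx2 and Lhx6 only through non-growing ones.

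Gbx2 was at 1.31 and 1.22 TPM in non-growing and 14.0 and 15.6 TPM in growing PRC2 control oocytes, a log2 change of 2.80 (SE 0.29, limma adjusted p = 0.000172), the largest of the 7 tested members. Isl2 was at 5.39 and 5.43 TPM and then 18.4 and 9.65 TPM (log2 change 1.17, SE 0.30, limma adjusted p = 0.0114), and its adjusted p was 0.0507 or 0.0504 without either non-growing control. Pax6 was at 0 and 0.05 TPM and then 2.69 and 1.06 TPM (log2 change 1.43, SE 0.29, limma adjusted p = 0.00413). Evx1 was at 0 and 0.21 TPM and then 1.9 and 1.99 TPM (log2 change 1.42, SE 0.16, limma adjusted p = 0.000232). The growing control libraries of all 4 genes were above the non-growing ones; for Pax6 and Evx1, which passed the filter only through growing libraries, this is a description with no weight as support.

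Lhx6 and Msx2 fell with growth. Lhx6 was at 1.9 and 2.62 TPM in non-growing and 0.28 and 0.03 TPM in growing PRC2 control oocytes (log2 change -1.50, SE 0.21, limma adjusted p = 0.000657). Msx2 was at 1.72 and 2.36 TPM and then 0.2 and 0.07 TPM (log2 change -1.42, SE 0.22, limma adjusted p = 0.00111). Isl1 did not pass, at 7.93 and 6.69 against 3.26 and 7.41 TPM with overlapping libraries. Its log2 change was -0.47 (95% interval -1.22 to 0.28), its sign depended on the scaling, and it passed without growing control 2. Below the testing level, Pax9 was at 0.82 and 1.02 TPM and then 0.14 and 0.05 TPM, and Emx2 was at 0.03 and 0 TPM and then 0.67 and 1.0 TPM.

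In PRC2 cKO oocytes 6 of the 7 tested members had the same sign of change with growth as in control, all but Isl1. Pax6 and Evx1 passed the filter only through growing libraries, Msx2 only through non-growing ones and Lhx6 only through non-growing control. The share of all genes with the same sign is not given here, so the count of 6 is a description with no weight as support. Of the 7 members, 5 were called: Gbx2, Isl2, Pax6 and Evx1 rose and Msx2 fell. Over all genes 20.1% were called higher and 46.0% lower, with a median shift of -0.454, and the split went from 2844 and 6516 to 3973 and 4829 after trimmed-mean scaling. Gbx2 rose from 1.45 and 1.71 to 16.1 and 31.6 TPM (log2 change 3.20, SE 0.29, limma adjusted p = 9.48e-05). Isl2 rose from 3.01 and 4.48 to 27.4 and 33.2 TPM (log2 change 2.73, SE 0.30, limma adjusted p = 0.000227). Pax6 and Evx1, listed at 0 in both non-growing PRC2 cKO libraries, stood at 3.52 and 5.14 TPM and at 2.23 and 2.4 TPM in growing ones (limma adjusted p = 0.000372 and 9.54e-05). Msx2 fell from 1.43 and 1.77 to 0.18 and 0.66 TPM (log2 change -0.89, limma adjusted p = 0.0101, and 0.0517 without non-growing cKO 2). Lhx6 was at 0.53 and 0.91 against 0.33 and 0.17 TPM and did not pass (log2 change -0.45, limma adjusted p = 0.0937).

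**Figure D3:**
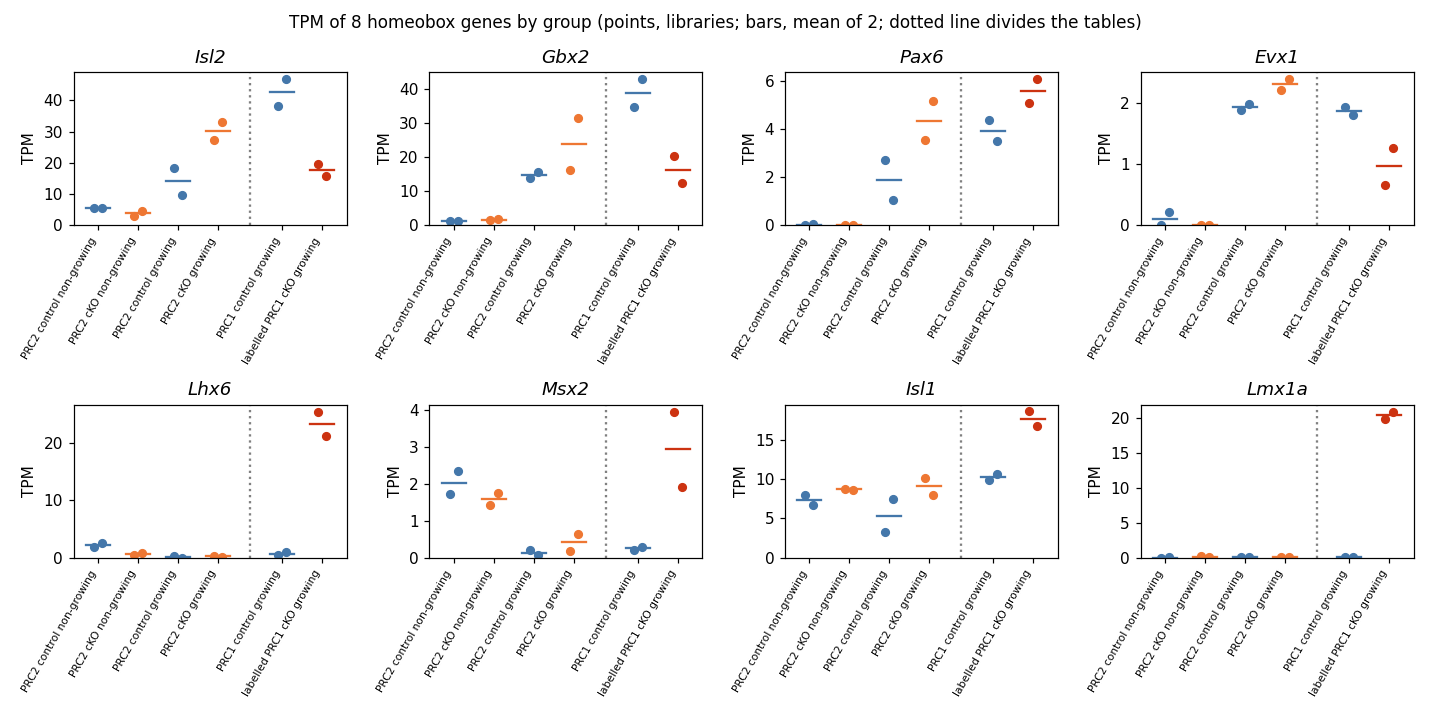
TPM of 8 genes in each library (points) with the mean of 2 (bars) by group. The dotted line divides the separately deposited tables, and blue marks controls. Gbx2 and Isl2 climb from non-growing to growing oocytes and are lower in oocytes labelled PRC1 cKO, while Lhx6 and Msx2 fall with growth and are higher in those oocytes.

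Side by side, the growth and PRC1 changes had opposite signs for 5 of the 6 members called in growing PRC2 control oocytes. Of the 4 that rose with growth, Gbx2 and Isl2 were called lower in oocytes labelled PRC1 cKO, Evx1 was lower without passing and Pax6 was not lower. Both that fell with growth, Lhx6 and Msx2, were called higher. The signs were also opposite for 68.1% of 2244 genes that rose and 91.3% of 7155 genes that fell with growth, and 29.6% and 53.8% of these were both opposite and called. With only the PRC1 change taken relative to its median, the signs were opposite for 85.2% and 63.5% of these genes. They were then opposite for all 4 members that rose and both that fell. The growth change kept its sign without such a shift. The tables share no library, but the filter bears on these directions. In the PRC2 series Pax6 and Evx1 passed it only through growing libraries, and Lhx6 and Msx2 only through non-growing ones. In the PRC1 series Msx2 passed it only through oocytes labelled PRC1 cKO. The count of members with opposite signs is therefore a description, with no weight as support.

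**Figure D4:**
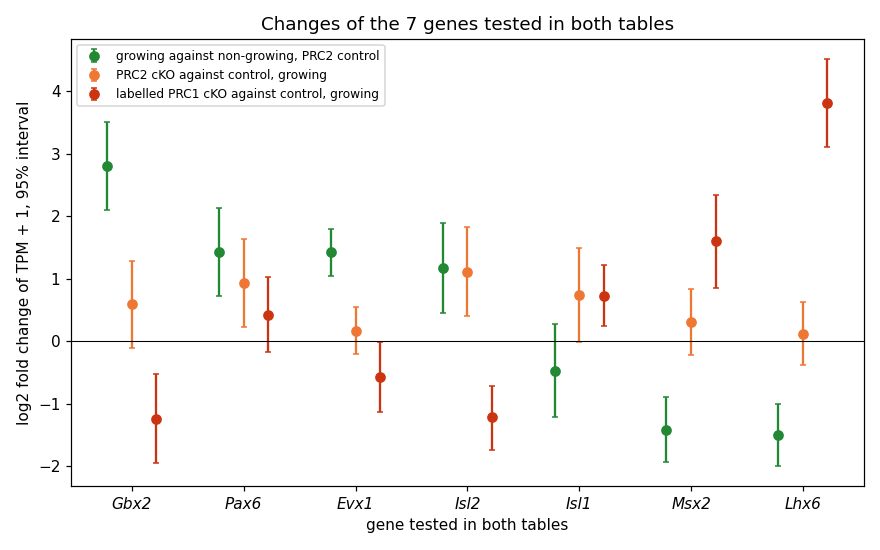
Log2 change of TPM + 1 with its 95% interval (limma) for the 7 genes tested in both tables: growth in PRC2 control (green), PRC2 cKO in growing oocytes (orange) and labelled PRC1 cKO in growing oocytes (red). Gbx2, Evx1 and Isl2 lie above 0 with growth and below 0 in the red comparison, and Lhx6 and Msx2 do the reverse; the red sign of Pax6 turns after scaling, as does the green sign of Isl1.

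The PRC2 comparisons ask what loss of Eed does at each stage, and no member was called in either. In non-growing oocytes 0 of 7 tested members passed by limma, and 1 had an unadjusted p under 0.05. Over all 14153 genes 44 (0.311%) passed. Lhx6 was at 1.9 and 2.62 TPM in PRC2 control against 0.53 and 0.91 TPM in PRC2 cKO (log2 change -0.92, 95% interval -1.42 to -0.43, limma adjusted p = 0.139). It is the member with the unadjusted p under 0.05, and it passed the filter only through the 2 control libraries, so that its libraries had to be apart. Isl2 was at 5.39 and 5.43 against 3.01 and 4.48 TPM (log2 change -0.45, interval -1.17 to 0.27, limma adjusted p = 0.476). Msx2 was at 1.72 and 2.36 against 1.43 and 1.77 TPM (log2 change -0.22, interval -0.75 to 0.30, limma adjusted p = 0.63). By overlap, 2 of 5 members with a mean of 1 TPM or more were higher in both cKO libraries (Gbx2 and Isl1) and 2 lower (Lhx6 and Isl2), against 21.3% and 39.5% of gene models.

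In growing oocytes 0 of 7 tested members passed by limma, 2 had an unadjusted p under 0.05, and 24 of 14153 genes (0.17%) passed. Isl2 was at 18.4 and 9.65 TPM in PRC2 control against 27.4 and 33.2 TPM in PRC2 cKO (log2 change 1.11, 95% interval 0.40 to 1.83, limma adjusted p = 0.343). Pax6 was at 2.69 and 1.06 against 3.52 and 5.14 TPM (log2 change 0.93, interval 0.23 to 1.63, limma adjusted p = 0.396). Isl1 was at 3.26 and 7.41 against 10.2 and 7.99 TPM (log2 change 0.74, interval -0.01 to 1.49, limma adjusted p = 0.508). Isl2, Pax6, Isl1, Gbx2 and Evx1, the 5 members with a mean of 1 TPM or more, were all higher in both PRC2 cKO libraries than in both controls and none was lower, where 23.0% of gene models were higher and 13.7% lower. After trimmed-mean scaling 6 members had that mean, 4 were higher, Isl1 overlapped and Emx2 was lower, where 18.6% of gene models were higher and 21.3% lower. Single growing controls moved these changes: without control 1 that of Isl1 was 0.25, and without control 2 those of Isl2 and Pax6 were 0.68 and 0.51. Gbx2 was at 14.0 and 15.6 against 16.1 and 31.6 TPM, so its difference rested mostly on cKO library 2.

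The change of the PRC2 effect between stages was not called for any member: 0 of 7 passed by limma, 2 had an unadjusted p under 0.05, and 0.0989% of genes passed. Isl2 gave a difference of 1.56 (SE 0.43, 95% interval 0.55 to 2.58, limma adjusted p = 0.305), Lhx6 1.04 (interval 0.34 to 1.74, limma adjusted p = 0.305) and Pax6 0.97 (interval -0.02 to 1.96, limma adjusted p = 0.322). The intervals of Isl2 and Lhx6 exclude 0 before adjustment over all genes. Lhx6 passed the filter only through the 2 non-growing control libraries, so its difference is a description with no weight as support. A p that misses the threshold does not show that the effects were alike.

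Low members stayed low in PRC2 cKO. In the 8 PRC2 libraries 45 of 54 members never reached 1 TPM, and 14 were listed at 0 throughout. Irx2 was at 0.13 and 0.8 TPM in non-growing PRC2 cKO against 0.04 and 0.09 TPM in control, and Msx1 was at 0.14 and 0.75 TPM in growing PRC2 cKO against 0.08 and 0.06 TPM, each high in cKO library 2 only. Lmx1a, at about 20 TPM in oocytes labelled PRC1 cKO, was at 0.06 to 0.25 TPM in all 4 PRC2 cKO libraries. PRC2 cKO was not tested against PRC1 cKO, since the series were deposited as separate tables.

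Other homeobox genes were compared by fixed lists. In oocytes labelled PRC1 cKO, 9 of 39 Hox cluster genes (23.1%) were at 1 TPM or more, against 1 (2.56%) in PRC1 control, and 8 of the 9 tested were called higher and none lower, where 41.3% and 6.45% of all genes tested were. The 8 called passed the filter only through the cKO libraries and so had to differ, and Hoxa7, the Hox gene above 1 TPM in control, was not called. Among the Hox genes with the largest changes that passed were Hoxb13 (0.03 and 0.04 against 5.54 and 2.3 TPM), Hoxd8 (0.01 and 0.1 against 2.59 and 3.69 TPM) and Hoxa10. Of 71 other developmental homeobox genes 18 were tested, 7 called higher and 2 lower, beside 41.3% and 6.45% of all genes tested. Dbx2 and Dmbx1, among those called higher, passed the filter only through the cKO libraries and so had to differ. The share of this list at 1 TPM or more went from 12.7% and 14.1% to 26.8% and 25.4%. That of all gene models went from 22.2% and 22.7% to 28.1% and 27.0%. Of 25 broadly expressed homeobox genes 19 were tested, with 7 called higher and 2 lower, beside the same 41.3% and 6.45% of all genes. Of 8 oocyte homeobox genes, Obox1, Obox2 and Obox5 were called lower and none higher. Without a filter the median log2 change was 0.112 for Hox genes, 0.135 for the other developmental, 0.324 for the broadly expressed and -0.106 for the oocyte homeobox genes.

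**Figure D5:**
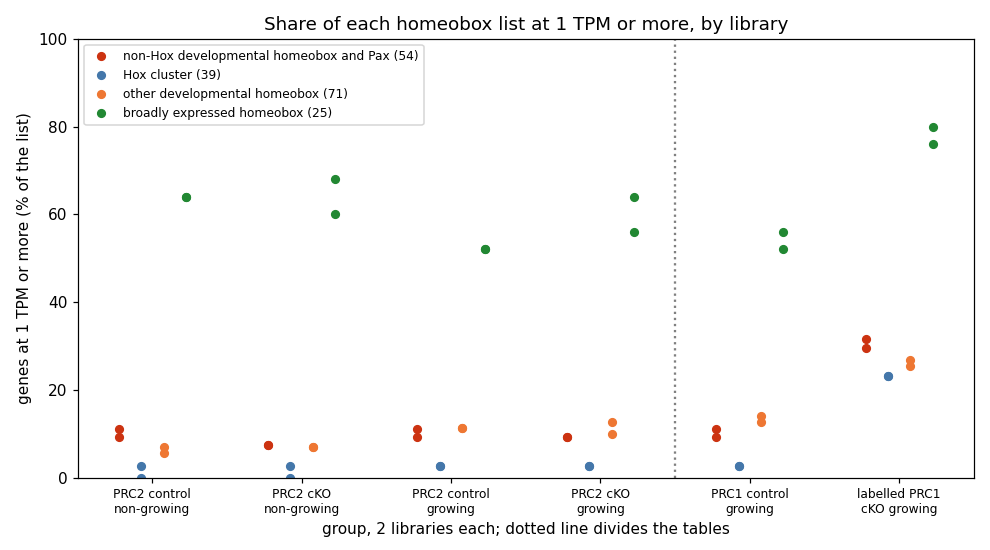
Share of each homeobox list at 1 TPM or more in each library (points; some coincide); the dotted line divides the tables. The 54 genes go from 9.26% and 11.1% in PRC1 control to 29.6% and 31.5% in oocytes labelled PRC1 cKO, and the Hox genes from 2.56% to 23.1%.

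Polycomb genes themselves were listed too. Of 24 PRC1 genes 22 were tested in the PRC1 table, with 5 called higher (Bcor, Pcgf2 and Pcgf5 among them) and 3 lower, Pcgf1 among them. Over all genes tested there, 41.3% were called higher and 6.45% lower. Of 12 PRC2 genes 11 were tested, Phf19 and Rbbp4 called higher and Ezh2 lower (149 and 102 against 37.2 and 72.8 TPM). Pcgf2 and Phf19 passed the filter only through the cKO libraries and so had to differ. In PRC2 cKO only Eed passed among the PRC2 genes, and it was lower at both stages.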

How the data were processed

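RNA-seq libraries of mouse oocytes, 12 in all, gave the data. The TPM values were deposited by the authors in 2 tables, of 8 PRC2 and 4 PRC1 libraries. The submitters' processing notes name HISAT2 and SAMtools, Trim Galore (0.6.10), RSEM (1.3.3) and Subread (2.0.3), and the builds mm10 and GRCm38. The source of the TPM among these, strand use and handling of multimapped reads: not given in the sources used here. TPM keeps no depth, so no interval can be given for a single value.

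Genes at 1 TPM or more in at least 2 libraries of a table (14153 and 14941) were fitted as log2(TPM + 1) with limma 3.58.1 in R 4.3.3, with a trend and no block, fitting a table's groups together, and two-sided tests adjusted by Benjamini-Hochberg. The fit was tested on simulated data. All 54 members are described by level. With statistics are named members that passed (at most 12 of largest change), or up to 3 of smallest p where fewer than 3 passed; Isl1, Lhx2, Pax6, Evx1, Emx2 and untested members were added after their values were seen. Members and lists were chosen with earlier results of these data known. Gene models and exon overlaps came from GENCODE vM21, promoters from RefSeq. Alternatives were pseudocount, filter, scaling, eBayes options, replicate block, left-out libraries and detection minimum. A crossed block and a minimum of 0 TPM were chosen after seeing the data. No deposited column of values was left out. Some genes of the fixed lists are not reported here.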

Additional observations from a re-analysis of the deposited data

Results flagged for a closer look

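For 3 members the cKO effect in growing oocytes had opposite signs in the PRC2 and the PRC1 series, with the libraries of each comparison apart. Isl2 changed by 1.11 (log2) in PRC2 cKO and by -1.22 in the libraries labelled PRC1 cKO. Gbx2 changed by 0.59 and -1.24, and Evx1 by 0.17 and -0.57. The PRC2 changes did not pass the test, nor did that of Evx1 in the PRC1 series. The series were deposited as separate tables, and the difference between them was not tested. The share of all gene models with such opposite signs was not computed, so the count of 3 members has no weight as support.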

How the results depend on the processing

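With no filter, 12 of 40 members were called for growth in PRC2 control, where 8.68% of 30642 gene models were higher and 26.3% lower. In PRC2 cKO 9 of 40 were called, where 10.5% were higher and 22.4% lower. A filter of 5 TPM left 2 members called in each. Of 9687 genes it left 1624 called higher and 5979 lower in PRC2 control, and 1941 and 5241 in PRC2 cKO. Members called in the PRC1 comparison numbered 5 with a filter of 5 TPM, beside 3991 genes higher and 818 lower of 10079. They numbered 6 after quantile normalization, beside 2722 genes higher and 2636 lower of 14941. With no filter 14 of 52 were called, where 17.8% of 32244 gene models were higher and 1.7% lower. Of these members 9 were shared with the 14 reported. Leaving out single libraries gave 5 to 7 members in PRC2 control growth, 4 to 5 in PRC2 cKO growth and 7 to 13 in the PRC1 comparison. In the 3 PRC2 cKO comparisons no member was called in any alternative. Alx1 turned to -0.11 after quantile normalization. The cause of these shifts was not tested, except that a filter changes which genes are tested.

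With a replicate block, 12 members were called in the PRC1 comparison (Isl1 and Lhx2 lost), 6 and 5 in the growth comparisons, and 0 in the PRC2 cKO comparisons. Over all genes the growth calls with the block were 2403 higher and 7768 lower in PRC2 control, and 2947 and 6596 in PRC2 cKO. The replicate numbers were not taken as pairing the samples: correlations of same-numbered deviations were -0.03 to 0.26 between PRC2 groups and -0.268 in PRC1. A crossed pairing of the PRC1 numbers gave 15 members and 7932 genes higher and 1569 lower, against 4494 and 600 with the block as numbered.

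Members not overlapping in the PRC2 non-growing comparison were 1 higher of 4 at a minimum of 2 TPM (21.7% of gene models), and 7 higher and 7 lower of 35 at 0 TPM (16.5% and 25.6%). In PRC2 growing oocytes 11 were higher and 2 lower of 32 at 0 TPM (20.3% and 10.2%), and 1 (Emx2) was lower at 0.5 TPM and also after trimmed-mean scaling. In the PRC1 comparison 35 were higher at 0 TPM. Mean members detected per library at a minimum of 2 TPM were 3 in PRC2 control and 2 in PRC2 cKO non-growing, 3.5 in PRC2 control growing and 10 in labelled PRC1 cKO. At 0.5 TPM they were 6.5 in PRC2 cKO non-growing and 8 in PRC2 cKO growing. Shares of all gene models at these minimums are not given, so these counts are a description only.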

Other observations

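The neighbours of Lmx1a and Lhx6 in the PRC1 series, within 60000 bases, were 7 gene models, in a comparison where 62.6% of models were higher and 14.7% lower in both cKO libraries. Rxrg, a retinoid receptor gene 49614 bases from Lmx1a, was at 0.11 and 0.07 TPM in PRC1 control and 4.22 and 2.87 TPM in oocytes labelled PRC1 cKO, and at 0.14 TPM or lower in all 8 PRC2 libraries. Morn5, 2235 bases from Lhx6 on the opposite strand, was at 4.24 and 5.16 against 15.9 and 16.6 TPM. Rbm18, 10671 bases from Lhx6 on the other side, was at 153 and 155 against 121 and 106 TPM. Ndufa8 was at 184 and 206 against 276 and 276 TPM. Mrrf overlapped (13.6 and 17.6 against 20.7 and 17.6 TPM), and Gm43764 and Gm13428 were at 0.06 TPM or lower in all 4 libraries.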
